A study of Mus musculus with 2 samples.

Results

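The 10 genes described here are mt-Nd1, mt-Nd2, mt-Nd4, mt-Nd4l, mt-Co1, mt-Co2, mt-Co3, mt-Atp6, mt-Atp8 and mt-Cytb. They were taken by name from the rows on sequence MT, the mitochondrial chromosome, of the gene annotation deposited with the series. That annotation holds 28002 genes, of which 13 lie on MT, and all 10 names were found there. The other 3 genes on MT, mt-Nd3, mt-Nd5 and mt-Nd6, serve as neighbours only.

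The series compared 2 single-cell libraries of sorted tdTomato-positive cells from the cochleae of mice at postnatal day 8. The GFP library came from cochleae given Anc80-GFP, a control virus, and the Ikzf2 library from cochleae given Anc80-Ikzf2, which carries the gene for the zinc finger factor Helios. Animals of both groups carried Myo15-Cre and Ai14, so that Cre made under the control of Myo15, a hair cell myosin gene, switches on tdTomato. There was 1 library per group, read from the 3' ends of transcripts. The values below are positions in the annotation on mouse assembly GRCm38 and bases of reference transcripts. The levels of these genes in the cells, the depth of the libraries and the change between GFP and Ikzf2 were not analysed here, and lengths and positions carry no sampling error.

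The mitochondrial chromosome is a small circular DNA that codes for membrane subunits of the respiratory chain and of ATP synthase, the machinery that makes most ATP in an active cell. Both of its strands are read into long RNAs that cover many genes. Transfer RNAs lie between most protein genes, and their removal by RNA nucleases sets free the messenger RNAs, which then receive a short poly(A) tail. Sensory hair cells depend on this energy supply, and in single-cell work the share of reads from these genes is widely used as a measure of cell quality.

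The sequences that carry the arrangement are the points where 2 genes meet. They are printed 5' to 3' on the plus strand of GRCm38, from GENCODE M21 transcripts. The first line shows the start codon of mt-Atp6 in capitals, inside mt-Atp8 (chrMT:7915-7944). The second shows the stop codon of mt-Atp8 in capitals, inside mt-Atp6 (chrMT:7955-7984). In the third, the capitals mark the stop codon of mt-Atp6 and the start codon of mt-Co3, which have a base in common (chrMT:8593-8622). In the fourth, the capitals mark the 7 bases that belong to both mt-Nd4l and mt-Nd4 (chrMT:10155-10184).
mt-Atp6 start: ttgagaattaaaATGaacgaaaatctattt
mt-Atp8 stop: ttaccccaacaaTAAtaggattcccaatcg
mt-Atp6 to mt-Co3: catgataatacaTAATGacccaccaaactc
mt-Nd4l to mt-Nd4: caacctactacaATGCTAAaaattattctt

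The other sequences that matter are ends of genes. For mt-Nd1 (chrMT:3693-3722) and mt-Nd2 (chrMT:4937-4966) the capitals mark the annotated stop codon, and the next transfer RNA begins with the last 2 of the capitals. For mt-Co3 (chrMT:9376-9405) and mt-Cytb (chrMT:15274-15303) the capital marks the base left over after the last whole codon, again with the next transfer RNA. For mt-Nd4 (chrMT:11530-11544) the line stops at the end of the gene model.
mt-Nd1 end: ccaccatacataTAGaaatatgtctgataa
mt-Nd2 end: caactaattaccTAGaagtttaggatatac
mt-Co3 end: attgatgaggatctTactcccttagtataa
mt-Cytb end: taaaattatatccaTgtcttgatagtataa
mt-Nd4 end: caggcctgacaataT

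All 10 genes lay on the plus strand, as did mt-Nd3 and mt-Nd5. Only mt-Nd6 was on the minus strand. In map order the first is mt-Nd1 (ENSMUSG00000064341, bases 2751 to 3707) and the second mt-Nd2 (ENSMUSG00000064345, 3914 to 4951), both membrane subunits of complex I, which takes electrons from NADH. They are followed by mt-Co1 (ENSMUSG00000064351, 5328 to 6872), the subunit of complex IV that holds its oxygen-reducing centre, and mt-Co2 (ENSMUSG00000064354, 7013 to 7696), the subunit that takes electrons from cytochrome c. Next come mt-Atp8 (ENSMUSG00000064356, 7766 to 7969) and mt-Atp6 (ENSMUSG00000064357, 7927 to 8607), membrane subunits of ATP synthase, and mt-Co3 (ENSMUSG00000064358, 8607 to 9390), another membrane subunit of complex IV. After mt-Nd3 lie mt-Nd4l (ENSMUSG00000065947, 9877 to 10173) and mt-Nd4 (ENSMUSG00000064363, 10167 to 11544), again complex I. The last is mt-Cytb (ENSMUSG00000064370, 14145 to 15288), the cytochrome b of complex III and its only subunit coded on this chromosome. By role, 4 of the 10 genes belong to complex I, 1 to complex III, 3 to complex IV and 2 to ATP synthase. Genes of the same complex are not all kept together: mt-Co1 and mt-Co2 stand on the left of the ATP synthase pair, and mt-Co3 on its right.

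**Figure D1:**
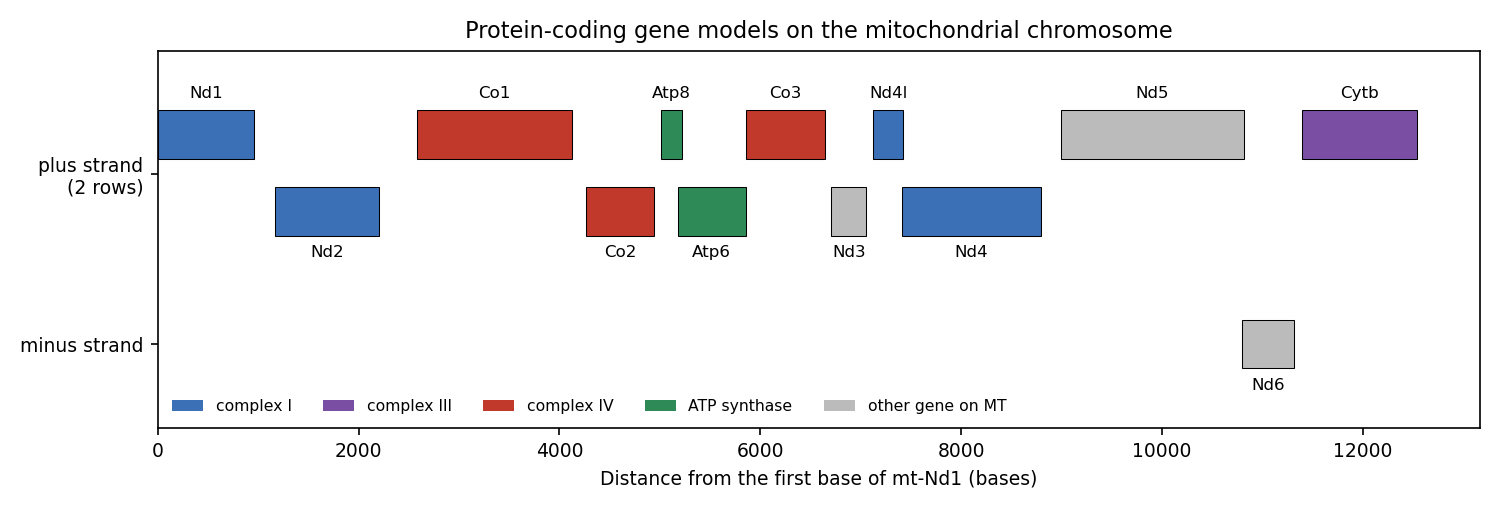
Map of the 13 protein-coding gene models on the mitochondrial chromosome, with distance from the first base of mt-Nd1 in bases on the x axis. Colours give the complex of the 10 genes and grey marks the other 3. Plus-strand genes are drawn in 2 rows so that overlaps can be seen, as for mt-Atp8 with mt-Atp6 (43 bases). Only mt-Nd6 lies on the minus strand.

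The 10 models had 1 transcript and 1 exon each. Of all 22048 protein-coding mouse genes in the annotation, 36.5% had 1 transcript and 10.8% had a single exon in every transcript. Each model began with the first base of its start codon and ended with its stop codon or its last coding base. No row of a 5' or 3' UTR was given for any of the 10, and the number of exon bases beyond the stop codon was 0 in each. All 13 models on MT carried the source label insdc, which no gene on another chromosome carried. The lack of UTR rows describes these models, and the ends of the transcripts were not measured here. Over all protein-coding genes, 9.55% had no annotated 3' UTR and 9.60% no annotated 5' UTR. A single exon with neither UTR was found in 5.48% of them (1209 genes), among them the 13 on MT. Of the 1196 such genes on other chromosomes, 644 were named as olfactory receptors (Olfr), which are typically intronless in their coding part.

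The lengths differed 7.6-fold between the ends of the range. mt-Co1 was the longest at 1545 bases, with 514 codons before its stop, and mt-Nd4 followed with 1378 bases and 459 whole codons. mt-Cytb had 1144 bases and 381 whole codons, mt-Nd2 1038 bases and 345 codons, and mt-Nd1 957 bases and 318 codons. These 5 genes of complexes I, III and IV were the long ones. mt-Co3 had 784 bases and 261 whole codons, while mt-Co2 had 684 bases and 227 codons and mt-Atp6 681 bases and 226 codons. The shortest were the front partners of the 2 larger overlaps, mt-Nd4l with 297 bases and 98 codons, and mt-Atp8 with 204 bases and 67 codons. The median of the 10 was 870.5 bases, against a median longest coding sequence of 1170 bases over the 21990 protein-coding genes with one. Only 189 of those had a shorter coding sequence than mt-Atp8, and 645 a shorter one than mt-Nd4l.

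From the first base of mt-Nd1 to the last of mt-Cytb the chromosome measures 12538 bases. Protein gene models covered 90.4% of that stretch. With the transfer RNA models of GENCODE M21 the cover rose to 99.6%, which left 56 bases outside any of these models. Of these, 38 lay between mt-Nd2 and mt-Co1, where 5 transfer RNAs are found and where an origin of DNA replication is known to lie. The deposited annotation itself holds none of the 22 transfer RNA genes and neither of the 2 ribosomal RNA genes that M21 lists on this chromosome. The stretches between its models therefore stand empty in it.

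Of the 12 pairs of neighbours on MT, 8 were separated by a gap, of 68 to 376 bases with a median of 107 bases. The widest, 376 bases, lay between mt-Nd2 and mt-Co1. The gap from mt-Nd1 to mt-Nd2 was 206 bases and held 3 transfer RNAs, mt-Ti, mt-Tq and mt-Tm, with 2 bases outside them. Between mt-Co1 and mt-Co2 lay 140 bases with mt-Ts1 and mt-Td, and between mt-Co2 and mt-Atp8 69 bases with mt-Tk. mt-Co3 was followed by a gap of 68 bases that mt-Tg fills without a spare base. mt-Nd4l came 70 bases after mt-Nd3, with mt-Tr between them. mt-Nd4 was followed by 197 bases with mt-Th, mt-Ts2 and mt-Tl2, and mt-Cytb was preceded by 74 bases with mt-Te. Each of the 8 gaps thus held at least 1 transfer RNA model, and none of the pairs without a gap did.

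The remaining 4 pairs overlapped, 3 of them on the same strand and all 3 made of genes described here. mt-Atp8 and mt-Atp6 shared 43 bases (7927 to 7969), mt-Nd4l and mt-Nd4 shared 7 bases (10167 to 10173), and mt-Atp6 and mt-Co3 shared 1 base (8607). The fourth, mt-Nd5 with mt-Nd6, shared 14 bases on opposite strands. In each of the 3 same-strand overlaps the second gene was read in a frame 2 bases on from that of the first, so the shared bases are read as different codons in each. In the mt-Nd4l to mt-Nd4 line above, the 7 capitals hold the ATG of mt-Nd4 at their front and the TAA of mt-Nd4l at their back. In the mt-Atp6 to mt-Co3 line, the last A of TAA is the A of ATG. The sum of the 10 lengths was 8712 bases and the stretch they covered 8661 bases, so 51 bases were counted in 2 genes.

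Start codons differed among the 10 genes. The reference transcripts began with ATG in 8 of them. mt-Nd1 began with GTG and mt-Nd2 with ATA, codons that the mitochondrial system also accepts as starts. Of the neighbours, mt-Nd3 began with ATT and mt-Nd5 with ATC. All 10 had a start codon row in the annotation.

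Stop codon rows were present for 7 of the 10 genes and absent for mt-Co3, mt-Nd4 and mt-Cytb. Over all protein-coding genes, 1.59% (350 of 22048) had no stop codon row in any protein-coding transcript. In mt-Co3, mt-Nd4 and mt-Cytb the coding length was not a multiple of 3, and 1 base was left over after the last whole codon. That base was T in each, the capital in the 3 lines above. It is textbook knowledge that the poly(A) tail supplies the 2 missing A of a TAA stop in such mitochondrial messengers. A tail is not part of a genome annotation, so this was not tested here. mt-Tg began on the base directly after mt-Co3, and mt-Tt on the base directly after mt-Cytb. After mt-Nd4, 1 base separated the model from mt-Th.

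The other 7 genes ended in TAA (5 genes) or TAG (2 genes), and none of them in AGA or AGG. The 2 with TAG were mt-Nd1 and mt-Nd2. In both, the last 2 bases of the stop codon also lay in the transfer RNA model that follows on the same strand, mt-Ti after mt-Nd1 and mt-Tw after mt-Nd2. Those bases, the AG of each TAG, are thus assigned both to a protein gene and to a transfer RNA. The TAA of mt-Co1 lay opposite the last 3 bases of mt-Ts1, a transfer RNA of the minus strand. mt-Co2 ended 3 bases before mt-Tk, and its TAA was free of any other model.

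In the mitochondrial genetic code TGA stands for tryptophan, whereas it is a stop codon in the nuclear code. The 10 genes held 79 TGA codons in frame, against 2 of TGG, the nuclear tryptophan codon. mt-Co1 had 17 TGA codons, mt-Co3 and mt-Nd4 12 each, and mt-Nd4l none. The 2 TGG codons stood in mt-Nd1 and mt-Nd4. Read with the mitochondrial code, none of the 10 frames held a stop codon before its end.

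The 10 genes were low in G on the coding strand. The share of G ran from 5.88% in mt-Atp8 to 16.1% in mt-Co1, with a median of 11.3%, whereas the median over the longest protein-coding transcript of 21853 nuclear genes was 24.7%. The share of C was 26.0% in the median gene, near the nuclear median of 24.2%. G and C together made up 31.9% in mt-Atp8 to 41.1% in mt-Nd4l, with a median of 38.1% against 49.1% in nuclear genes. Nuclear transcripts include UTRs and these models do not, so the comparison is of unlike stretches. At the third codon position G was rarer than over the whole gene, except in mt-Atp8, where both shares were 5.88%. The third-position share ran from 1.53% in mt-Co3 to 5.88% in mt-Atp8. A was the most common base there in every one of the 10, from 43.9% in mt-Co2 to 63.2% in mt-Atp8. mt-Nd6, the gene of the other strand, had 22.5% G and 1.16% C at the third codon position. The figures for mt-Atp8 rest on 68 codons and those for mt-Nd4l on 99, stop codons included.

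**Figure D2:**
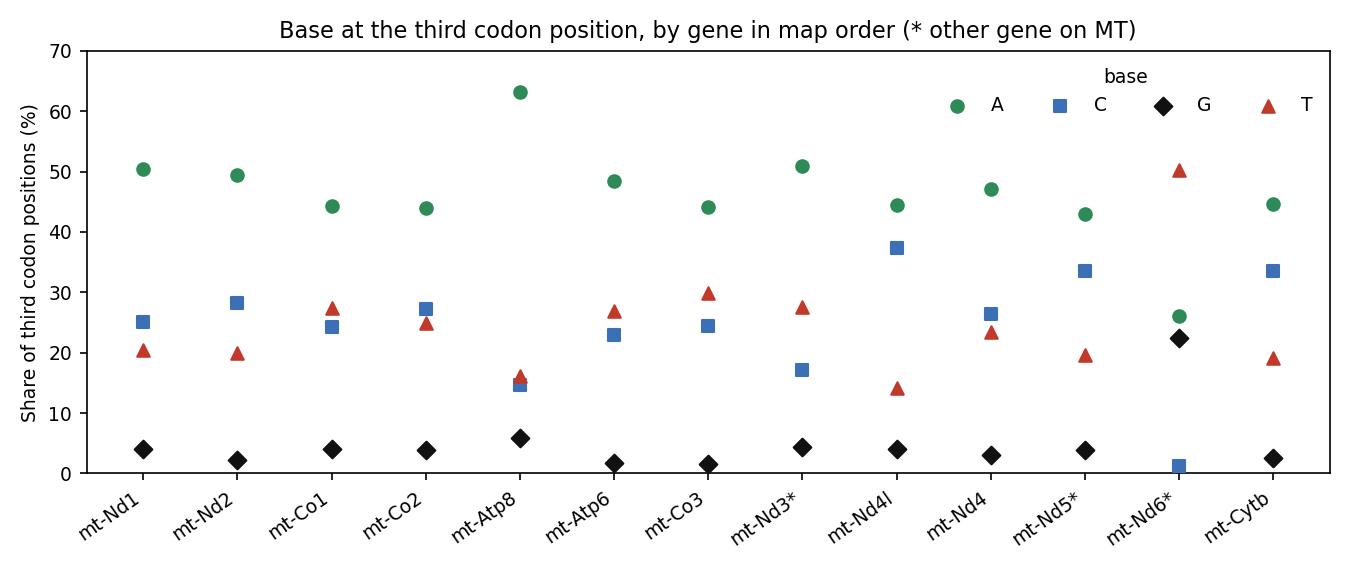
Share of each base at the third codon position (y axis, percent) in the 13 protein genes of the mitochondrial chromosome in map order (x axis), with an asterisk for genes other than the 10. Circles are A, squares C, diamonds G and triangles T. G lies at or under 5.88% in the 10 genes and at 22.5% in mt-Nd6 on the minus strand.

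Libraries of this kind start from oligo-dT, which can also prime on runs of A inside a transcript. The longest run of A was 8 bases in mt-Nd2, 7 in mt-Co1 and mt-Nd4, 6 in mt-Nd1 and 4 or 5 in the other 6 genes. The median over the 10 was 5, against 6 over the nuclear transcripts. Those transcripts include UTRs and the 10 models do not, so here too unlike stretches are compared. Within the last 500 bases of each model the longest run was 6 in mt-Nd1 and mt-Nd2, and 4 or 5 in the others. The runs of 8 and 7 thus lay further from the 3' end. Where priming took place in these libraries was not tested.

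For counting at the 3' end, the last 500 exonic bases of each transcript were taken as its 3' window, and it was called shared when a different gene of that strand had at least 1 exon base in it. This was so for 3.24% of all protein-coding genes (714 of 22048). Of the 10 mitochondrial genes, 3 had a shared window: mt-Atp8, mt-Atp6 and mt-Nd4l. The shared stretch was 43 of 204 bases in mt-Atp8, 7 of 297 in mt-Nd4l and 1 of 500 in mt-Atp6. mt-Atp8 and mt-Nd4l are shorter than the window, so all of each model was taken. The back partners mt-Co3 and mt-Nd4 had no shared base in their windows, since their overlaps lie at the 5' end. With a minimum of 10 shared bases only mt-Atp8 was left, beside 3.22% of protein-coding genes, and with a minimum of 100 bases none was, beside 2.90%. Of the 714 protein-coding genes with a shared window, 640 shared at least 100 bases, and the 3 mitochondrial ones shared 43 bases or fewer.

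The call was repeated with other definitions of the window. With the last 200 bases the same 3 genes were called, beside 2.70% of protein-coding genes. With 1000 bases mt-Co3 joined them (4 of 10, beside 3.58%). With whole models mt-Co3 and mt-Nd4 were added (5 of 10, beside 4.29%), so both genes of each overlapping pair were called. When either strand counted, the number of the 10 stayed at 3 while the share of protein-coding genes was 14.3%. In M21, where transfer RNAs have models of their own, 5 of 10 were called beside 5.39% of its protein-coding genes, and the 2 added were mt-Nd1 and mt-Nd2, each with 2 shared bases.

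How often single reads would touch a second gene was worked out from the models alone. A read of 100 bases can lie wholly inside the 10 genes at 7722 positions, of which 102 (1.32%) touch a second gene. Most of these belong to the ATP synthase pair. In mt-Atp8, 43 of 105 positions (41.0%) touched mt-Atp6. In mt-Atp6, 44 of 582 (7.56%) touched mt-Atp8 or mt-Co3. The share was 3.54% in mt-Nd4l, 0.547% in mt-Nd4 and 0.146% in mt-Co3. It was 0 in mt-Nd1, mt-Nd2, mt-Co1, mt-Co2 and mt-Cytb. Reads of 50 bases gave 27.7% in mt-Atp8 and 1.24% over the 10. No position lay wholly inside both genes of a pair at either length, since the longest overlap is 43 bases. Each position counted here thus lies wholly in 1 gene only. Reads that run across an overlap into the next gene lie wholly in neither model and were left out. The sources used here do not give the read length of the libraries.

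**Figure D3:**
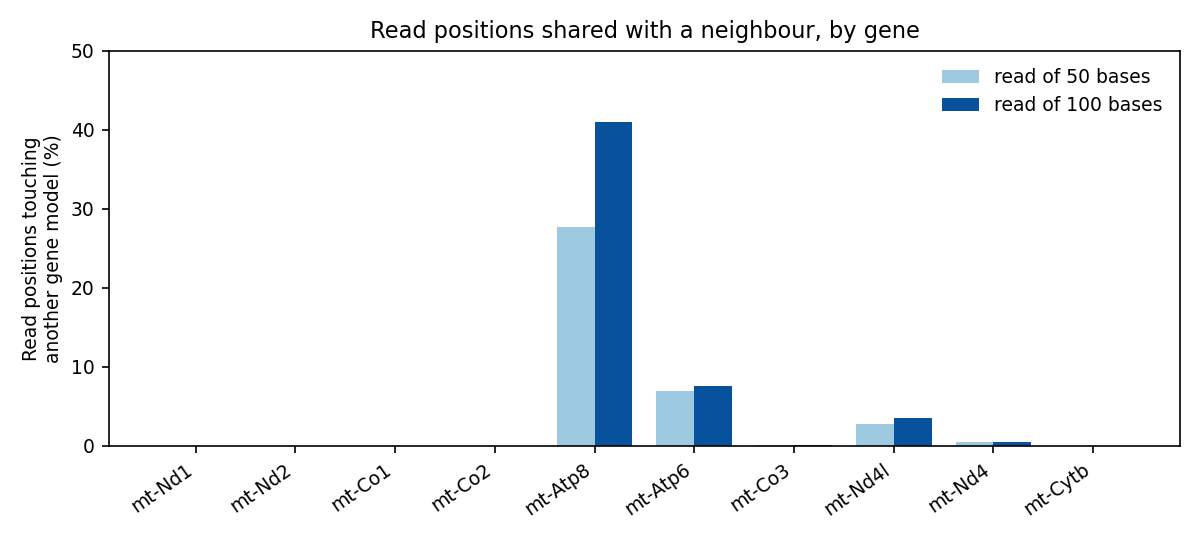
Share of read positions inside each gene that touch another gene model on the same strand (y axis, percent), for reads of 50 bases (light bars) and 100 bases (dark bars), by gene in map order (x axis). mt-Atp8 stands highest at 27.7% and 41.0%, and 5 of the 10 genes are at 0.

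Cell Ranger, the tool named for these libraries, is known to count a read for a gene only where its alignment fits the exons of a single gene. A read that fits 2 genes is not counted for either. The shares above are thus of positions that touch a neighbour, not of reads lost to counting. How Cell Ranger treated reads across these overlaps was not tested. A further point concerns where the poly(A) tails lie. It is textbook knowledge that mt-Atp8 and mt-Atp6 are translated from a joint messenger, and so are mt-Nd4l and mt-Nd4. In the joint span of the first pair (842 bases), the end of mt-Atp8 lay 638 bases before the end of mt-Atp6. In that of the second (1668 bases), the end of mt-Nd4l lay 1371 bases before the end of mt-Nd4. The last 500 bases of each joint span held 0 bases of the front gene, mt-Atp8 or mt-Nd4l, and lay wholly in mt-Atp6 or mt-Nd4. Where the reads of the 2 libraries fall was not analysed here.

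A second kind of sharing is by sequence. Stretches of mitochondrial DNA have been copied into the nuclear chromosomes, where they are annotated as pseudogenes. Each of the 10 genes was compared with the 141730 nuclear transcripts of GENCODE M21. A copy with at least 95% identity over at least 100 bases in the same orientation was found for 7 of them, in 9 genes, all of them pseudogenes in M21. None of the 9 is in the deposited annotation. The share of other protein-coding genes with such a copy was not computed, so the count of 7 has no background here. Only annotated transcripts were searched, so copies that M21 does not list as a gene were not seen.

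On chromosome 1, 6 such pseudogenes lay between 24611535 and 24616197 on the minus strand, in the order of the mitochondrial genes. Gm28661 matched mt-Co2 at 100% over 681 bases, Gm10925 matched mt-Atp6 at 100% over 678 bases, and Gm28437 matched mt-Co3 at 100% over 783 bases. Gm10222 matched mt-Nd4l at 100% over 294 bases and Gm28439 the first 876 bases of mt-Nd4 at 100%. Gm29216 matched the last 483 bases of mt-Co1 at 99.8%. The copies of mt-Co1, mt-Co2, mt-Atp6 and mt-Co3 kept the spacing of the mitochondrial chromosome to the base, and those of mt-Nd4l and mt-Nd4 were shifted by 1 base. Gm10925 also held the 43 bases that mt-Atp8 shares with mt-Atp6, which is under the minimum length of 100, and the only other match of mt-Atp8 in this orientation was Gm28925 on chromosome 1, with 81.4% identity over 167 bases. No gene of the deposited annotation lay over this stretch of chromosome 1.

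On chromosome 2, 3 pseudogenes lay between 22587291 and 22590533. Gm13340 matched all 1545 bases of mt-Co1 at 97.6%, Gm13341 matched mt-Co2 at 95.9% and Gm13339 the last 510 bases of mt-Nd2 at 96.7%. The spacing of these 3 was also that of the mitochondrial chromosome. In the deposited annotation this stretch lies within the limits of Myo3a, an unconventional myosin gene of hair cells, but in none of its exons.

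The 3' windows were hit unequally by these copies. In mt-Nd2, mt-Co1 and mt-Co2 the alignments to copies spanned 100% of the last 500 bases. They spanned 99.8% in mt-Co3, 99.4% in mt-Atp6, and 99.0% of the 297 bases of mt-Nd4l. The full span in mt-Nd2, mt-Co1 and mt-Co2 rests on chromosome 2 copies of 96.7%, 97.6% and 95.9% identity, in that order. In mt-Nd4 the copy stopped 502 bases before the end of the gene, so it covered 0 bases of the window. mt-Nd1, mt-Atp8 and mt-Cytb had no copy at this threshold among the transcripts searched. The front part of mt-Atp8 lies between mt-Co2 and mt-Atp6, whose copies on chromosome 1 kept their spacing. Between those copies (24614651 to 24614885) no transcript matched, and the chromosome itself was not searched. Whether a copy of mt-Atp8 lies there was therefore not tested. For mt-Cytb the nearest was Gm11410 on chromosome 4, with 92.9% identity over 1142 bases. Reads from a stretch with an identical copy can be placed in either location by an aligner. Whether reads of these libraries were placed in more than 1 location was not tested. Nor was the effect of such placement on counts for mt-Co2, mt-Atp6, mt-Co3 and mt-Nd4l, whose 3' windows have identical copies. The same holds for mt-Co1, whose last 483 bases have a copy at 99.8%. In the deposited annotation no exon lies in the stretches of chromosomes 1 and 2 that hold these copies.

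**Figure D4:**
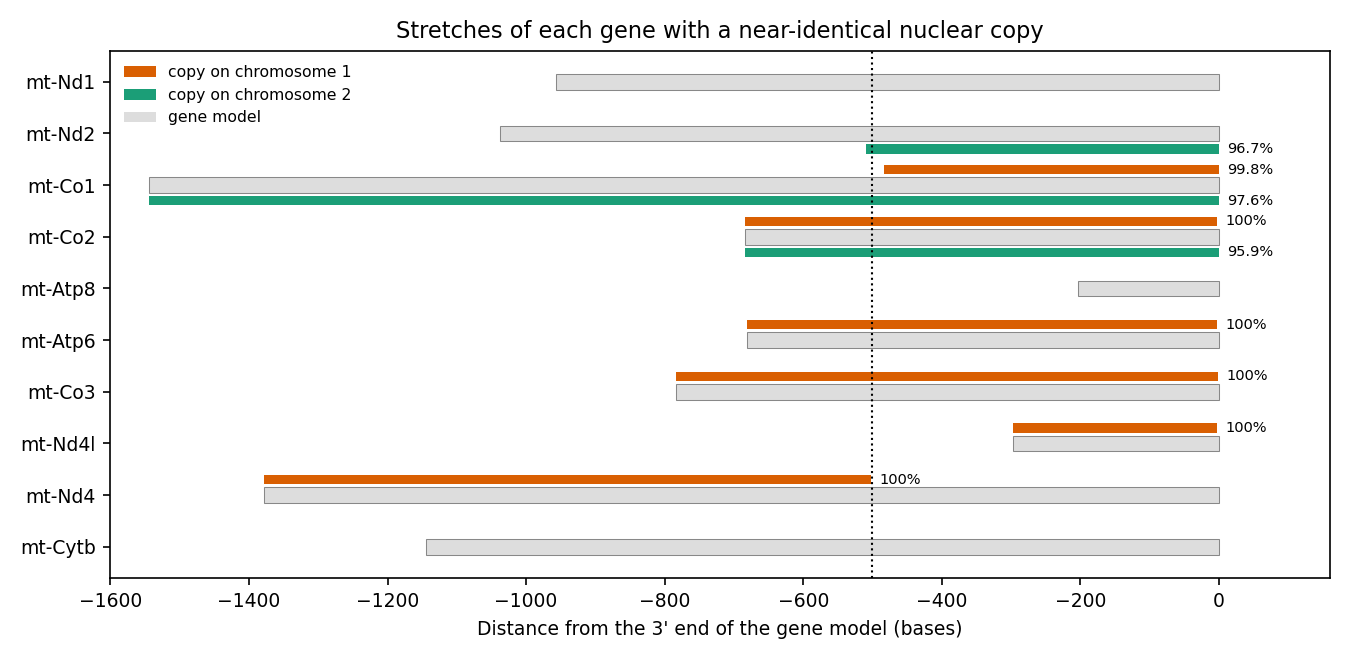
Near-identical nuclear copies along each of the 10 gene models, drawn to scale with distance from the 3' end of the model in bases on the x axis. Grey bars are the models, orange bars copies on chromosome 1 and green bars copies on chromosome 2, each with its identity in percent, and the dotted line marks 500 bases from the end. The copy of mt-Nd4 ends before that line, whereas those of mt-Co2, mt-Atp6, mt-Co3 and mt-Nd4l reach to within 3 bases of the end.

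The partners of these proteins in the same complexes are coded in the nucleus and have ordinary gene models. All 72 listed nuclear genes for complexes I, III and IV and for ATP synthase were found in the annotation. They are subunits except Atpif1, an inhibitor of ATP synthase that the list includes. Each of the 72 had an annotated 3' UTR and a stop codon row, and none was a single-exon gene. Their largest transcripts had 2 to 19 exons with a median of 4, against 7 over all protein-coding genes. Their longest 3' UTRs had a median of 193 bases, against 851 bases over the 19943 protein-coding genes with one. The shortest were those of Ndufa13 at 33 bases and of Ndufa5 and Ndufb10 at 57 bases each, all complex I accessory subunits. The longest were those of Atp5g1, a subunit of the membrane ring of ATP synthase, at 4252 bases and of Ndufb2, a complex I accessory subunit, at 4012 bases.

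By list, the median 3' UTR was 82 bases in the 7 nuclear core subunits of complex I, 188 bases in its 29 accessory subunits, 203 bases in the 9 subunits of complex III, 231 bases in the 11 of complex IV and 157.5 bases in the 16 genes of ATP synthase. Shared 3' windows were found in 3 of the 72 (4.17%), near the 3.24% of all protein-coding genes. Ndufb2 shared 145 bases with Gm42420, Ndufb8 shared 134 bases with Gm20538, and Atp5o, the OSCP subunit of the ATP synthase stalk, shared 287 bases with Donson. Each of these was longer than the 43 bases of mt-Atp8 and mt-Atp6.

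The proteins that make and finish mitochondrial RNA are also coded in the nucleus. All 16 listed genes were found, with a median longest 3' UTR of 522.5 bases and no shared window. Elac2, which cuts transfer RNAs out of the long transcript at their 3' side, had up to 25 exons and a 3' UTR of 372 bases. Mtpap, the poly(A) polymerase of mitochondria, whose product completes the stop codons of messengers that end in T, had 9 exons and a 3' UTR of 863 bases.

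**Figure D5:**
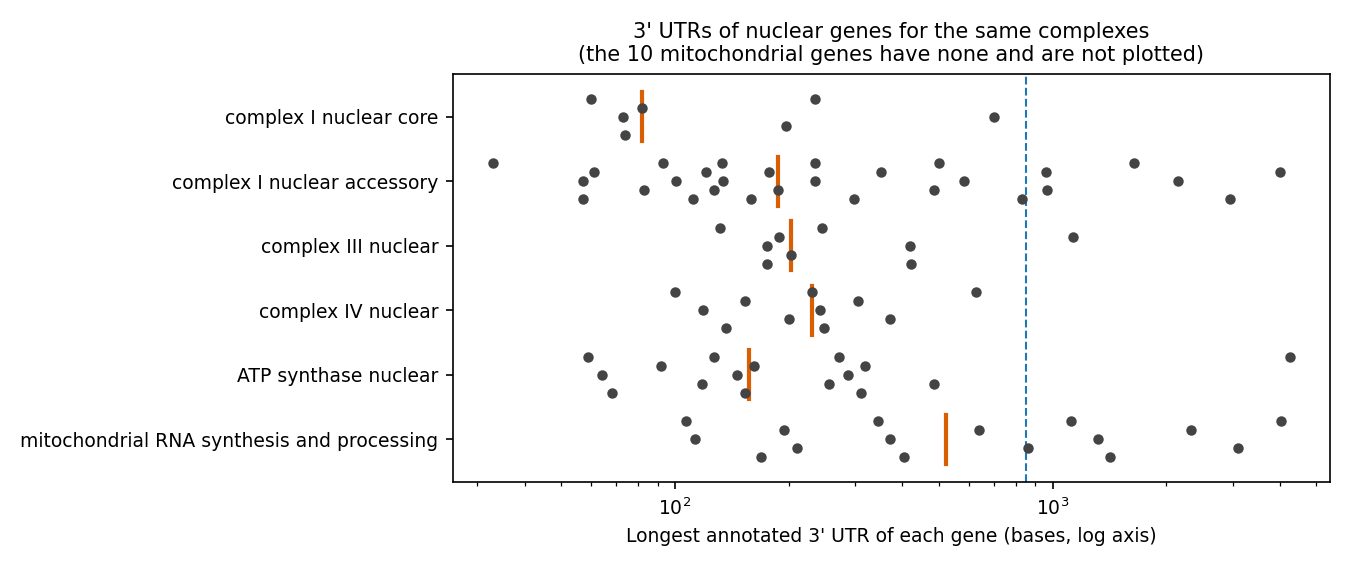
Longest annotated 3' UTR in bases (x axis, log scale) of nuclear genes for the complexes of the 10 mitochondrial genes and for mitochondrial RNA synthesis and processing, 1 point per gene. Orange bars are list medians and the dashed line is the median of all protein-coding genes with a 3' UTR (851 bases). All 5 lists for the complexes have medians of 231 bases or less, and the 10 mitochondrial genes, which have no annotated 3' UTR, are not drawn.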

How the data were processed

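The authors deposited a gene annotation, which holds positions in bases and text fields of the whole series and 0 columns of per-sample values. Per the file headers it follows GRCm38 with patch 4. The submitters' processing notes name Cell Ranger 2.0.2 without saying what it did. The sources used here do not give how biotypes were filtered. The annotation held 1511492 rows, of which 75 lay on MT.

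Gene models, gaps, overlaps, UTR and stop codon rows were read directly. Sequences and transfer RNA models came from GENCODE M21, also on GRCm38, in which all 10 genes had the same start, end and strand. Copies were searched with BLAST 2.17.0 (E-value limit 1e-10). The planned search of the nuclear genome was made on nuclear transcripts instead, because no genome sequence was used here. No test was made, since the counts describe models. Counts of windows, UTRs, exons and stop codon rows were set beside all protein-coding genes, and those of start codons and nuclear copies were not. The genes and lists were chosen with earlier results of these data known. All genes of interest are named, and of the lists those with a shared window, the extremes of 3' UTR length, Mtpap and Elac2. Gm11410, Gm28925 and Myo3a are named because of their values. Depth and replicates concern no value here. Window size, overlap, strand, annotation, identity and read length were varied. The computations used Python 3.11.15 and Matplotlib 3.10.9. Those of windows, 3' UTRs, stop codon rows and read placements were tested on simulated data, and the others were not.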

Additional observations from a re-analysis of the deposited data

How the results depend on the processing

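The count of genes with a shared 3' window was 3 with windows of 200 and 500 bases and on either strand, and 4 with 1000 bases, where mt-Co3 was added. It was 1 with at least 10 shared bases and 0 with at least 100. It was 5 with the M21 models, which add transfer RNAs at the ends of mt-Nd1 and mt-Nd2, and 5 with whole models, which add mt-Co3 and mt-Nd4. The 10 genes without an annotated 3' UTR stayed 10 under both alternatives. The 3 genes without an annotated stop codon stayed 3 with M21 and by sequence. They became 5 when a stop codon had to be free of same-strand transfer RNA models. Overlapping same-strand pairs numbered 3, or 6 with all M21 models on MT, of which 5 include one of the 10 genes, and 4 on either strand. Genes with a nuclear copy numbered 7, with a range of 6 to 8 over identity limits of 90% and 98% and a minimum of 50% of the gene, and 0 when only copies in deposited gene models counted. Read positions touching 2 genes were 1.32% with 100 bases, 1.24% with 50 bases, and 0 when the read had to lie wholly in both. The whole-model, transfer RNA and deposited-copy alternatives were chosen after seeing the data. No paired analysis was possible because GFP and Ikzf2 have a single library each, with no values of either used here, and so no replicate could be left out.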
